A study of Mus musculus with 2 samples.

Results

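Cytokines are small proteins through which immune cells instruct each other, and 10 of their genes were followed in CH12.LX, an immortalized mouse line of a B cell lymphoma: Il10, Il6, Tnf, Lta, Ltb, Il12a, Ebi3, Csf2, Il16 and Il18. The genes were chosen by name, each was found by its Ensembl identifier, and they are 10 of the 43346 Ensembl gene entries measured. Polyadenylated RNA was sequenced from single ends in 2 libraries, labelled as biological replicates 1 and 2 and taken from separate biosamples. Per the labels the line comes from strain B10.H-2aH-4bp/Wts, is female and has no stated age, stage or treatment, so both libraries form 1 group and no second condition exists. CH12.LX is a single tumour line, so a difference between its 2 libraries lies within this line and does not show how far B cells vary.

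B cells are best known for antibodies, but they also secrete cytokines. Interleukin 10 is an inhibitory cytokine that marks regulatory B cells and is made readily by B-1 cells. Tumour necrosis factor and the lymphotoxins are close relatives encoded side by side in the major histocompatibility complex, and the lymphotoxin made by B cells organises lymphoid follicles. The interleukin 12 family is built from paired chains, so that Ebi3 and Il12a each need a partner to form a secreted cytokine. Interleukins 16 and 18 are made as precursors that proteases must cut. RNA was measured here, and secretion of the proteins was not.

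Of the 10 genes, 7 were detected, meaning that they stood at 1 TPM (a level corrected for transcript length and scaled to the library) or more in both libraries: Ltb, Il10, Ebi3, Lta, Il16, Tnf and Il12a. By the same rule 27.4 percent of all gene entries and 48.0 percent of protein-coding entries were detected. Csf2, Il18 and Il6 had values below 1 TPM in both libraries and were not detected by this rule. Their place among the 10 comes from the gene list used here, named for cytokines of the line, and not from the sample labels. None of the 10 was without a read. The detected genes spanned a 59.9-fold range of mean level, and the 10 genes summed to 589.5 TPM in replicate 1 and 533.4 TPM in replicate 2.

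The libraries held 22996547 and 25715408 expected counts, which are read counts estimated by the authors' software and need not be whole. All 8 B cell markers were detected, among them Cd79b at 525.0 and 545.33 TPM, and they summed to 1449 and 1560 TPM in replicates 1 and 2. Of 8 T cell markers 3 were detected, Cd3d, Cd3g and Cd28, with a summed level of 5.62 and 6.91 TPM over the list and Trbc2 at 0. Of 8 myeloid markers 2 were detected, Itgam and Adgre1, with 4.13 and 3.33 TPM over the list and Cd14, Mpo, S100a8 and S100a9 at 0. All 6 markers of NK and mast cells were at 0. The Y-linked genes Eif2s3y, at 63.65 and 50.51 TPM, and Ddx3y, at 29.05 and 25.37 TPM, were expressed although the label says female, and Xist had 1 and 0 counts. In bulk RNA, fewer cells making a cytokine and less RNA per cell cannot be told apart.

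**Figure D1:**
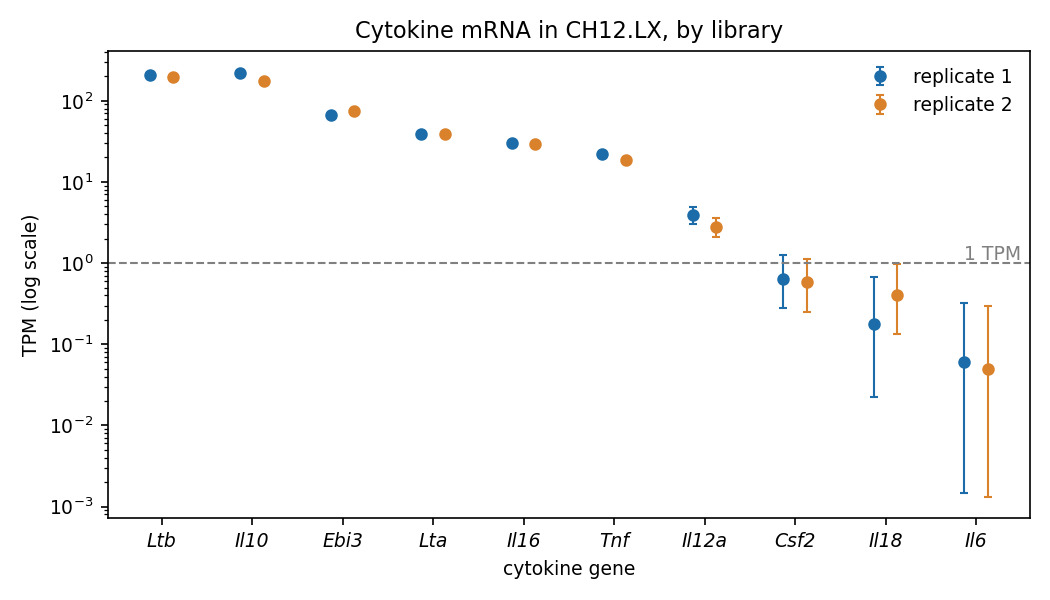
Level of the 10 cytokine genes in TPM on a log axis, with 1 point for each replicate and 95 percent exact Poisson intervals that cover counting error. The line at 1 TPM is the detection threshold: 7 genes lie above it in both libraries, and Csf2, Il18 and Il6 lie below it.

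Il10 and Ltb led the group. Il10, which encodes interleukin 10 (ENSMUSG00000016529, chromosome 1 from 131019845 to 131024974 on the plus strand in GRCm38), stood at 219.69 TPM in replicate 1 and 173.52 TPM in replicate 2, from 4571 and 4014 counts. The mean was 196.6 ± 32.6 TPM (SD, n = 2), higher than 96.96 percent of protein-coding genes. Counting error alone put replicate 1 between 213.4 and 226.2 TPM and replicate 2 between 168.2 and 179.0 TPM, so the libraries did not overlap. Il10 has 1 annotated transcript, ENSMUST00000016673, of 1310 bases in 5 exons.

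Ltb encodes lymphotoxin beta, the membrane anchor of the lymphotoxin heterotrimer (ENSMUSG00000024399, chromosome 17 from 35194439 to 35196320 on the plus strand). It stood at 207.17 and 193.43 TPM in replicates 1 and 2, from 3679 and 3916 counts, with a mean of 200.3 ± 9.72 TPM (SD, n = 2). The values of Ltb lay between those of Il10, so the order of these leading genes was not resolved.

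Ebi3, the chain that interleukins 27 and 35 share, came next (ENSMUSG00000003206, chromosome 17 from 55952640 to 55957022 on the plus strand). Its level was 66.75 TPM in replicate 1 and 75.74 TPM in replicate 2, from 1235.64 and 1559.01 counts, with a mean of 71.2 ± 6.36 TPM (SD, n = 2). Il10 stood 2.76-fold above it by the means, with no overlap between the libraries. The annotated antisense gene Gm16712 shares 270 of the 1154 exonic bases of Ebi3, or 23.4 percent. Whether the counting used strand is not given in the sources used here, so reads of the overlap cannot be assigned with certainty. Gm16712 itself was given 237.48 and 209.55 counts.

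Lta encodes lymphotoxin alpha, the partner of lymphotoxin beta and also a secreted homotrimer (ENSMUSG00000024402, chromosome 17 from 35203165 to 35205351 on the minus strand). It stood at 39.0 and 38.96 TPM in replicates 1 and 2, from 858 and 953 counts. In relative terms these 2 values were the closest of any member, within counting intervals of 36.43 to 41.69 TPM and 36.52 to 41.51 TPM. Tnf, the gene of tumour necrosis factor (ENSMUSG00000024401, chromosome 17 from 35199381 to 35202007 on the minus strand), reached 21.95 and 18.54 TPM from 575 and 540 counts. Its mean of 20.2 ± 2.41 TPM (SD, n = 2) was higher than 75.53 percent of protein-coding genes.

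Il16, whose product attracts CD4-bearing cells, lay between Lta and Tnf (ENSMUSG00000001741, chromosome 7 from 83642825 to 83745726 on the minus strand). Its level was 30.14 TPM in replicate 1 and 29.33 TPM in replicate 2, from 1539.97 and 1667.46 counts, with a mean of 29.7 ± 0.573 TPM (SD, n = 2). Lta stood 1.31-fold above it and Tnf stood below it, with Il16 1.47-fold over Tnf, and in neither pair did the libraries overlap. Il12a, the p35 chain of interleukins 12 and 35 (ENSMUSG00000027776, chromosome 3 from 68690644 to 68698547 on the plus strand), was the lowest detected member. It stood at 3.90 and 2.79 TPM from 68 and 55 counts, and Tnf exceeded it 6.05-fold by the means.

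The remaining 3 members rested on 8 or fewer counts in each library. Csf2, which encodes the granulocyte-macrophage colony-stimulating factor (ENSMUSG00000018916, chromosome 11 from 54247271 to 54249667 on the minus strand), stood at 0.64 and 0.58 TPM from 8 counts in each library. Its counting intervals, 0.277 to 1.27 TPM and 0.25 to 1.14 TPM, crossed the threshold of 1 TPM, so counting error does not place it below. The pro-inflammatory Il18 (ENSMUSG00000039217, chromosome 9 from 50554827 to 50581840 on the plus strand) stood at 0.18 and 0.41 TPM from 2 and 5 counts. Il6, a growth and differentiation factor for plasma cells (ENSMUSG00000025746, chromosome 5 from 30013114 to 30019981 on the plus strand), stood at 0.06 and 0.05 TPM from 1 count in each library. The counting interval of Il6 reached from 0.00148 to 0.325 TPM in replicate 1 and from 0.00133 to 0.292 TPM in replicate 2. Counting intervals overlapped between Csf2 and Il18 and between Il18 and Il6, so the order of these 3 is not resolved at this depth. Il12a, at 5.48-fold the mean of Csf2, stood apart from them in both libraries.

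Lta, Tnf and Ltb sit together within 10.9 kb of chromosome 17, with Lta and Tnf on the minus strand and Ltb on the plus strand facing Tnf. Across that short stretch the mean levels were 39.0 TPM for Lta, 20.2 TPM for Tnf and 200.3 TPM for Ltb. The order Ltb, Lta, Tnf held in both libraries. Of 8 neighbouring genes 6 were detected. On the Ltb side, the leukocyte transcript Lst1 stood at 7.0 and 6.3 TPM and the myeloid-associated Aif1 at 15.3 and 10.97 TPM. On the Lta side, Nfkbil1 stood at 24.49 and 19.06 TPM and the RNA helicase gene Ddx39b at 264.22 and 302.63 TPM. Further out, Prrc2a had 183.05 and 232.73 TPM and the chaperone gene Bag6 had 102.29 and 112.61 TPM. The locus lies in H-2, the histocompatibility complex whose H-2a form the strain label names, while the reference genome is that of C57BL/6J, and the part of this difference in the counts was not tested.

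**Figure D2:**
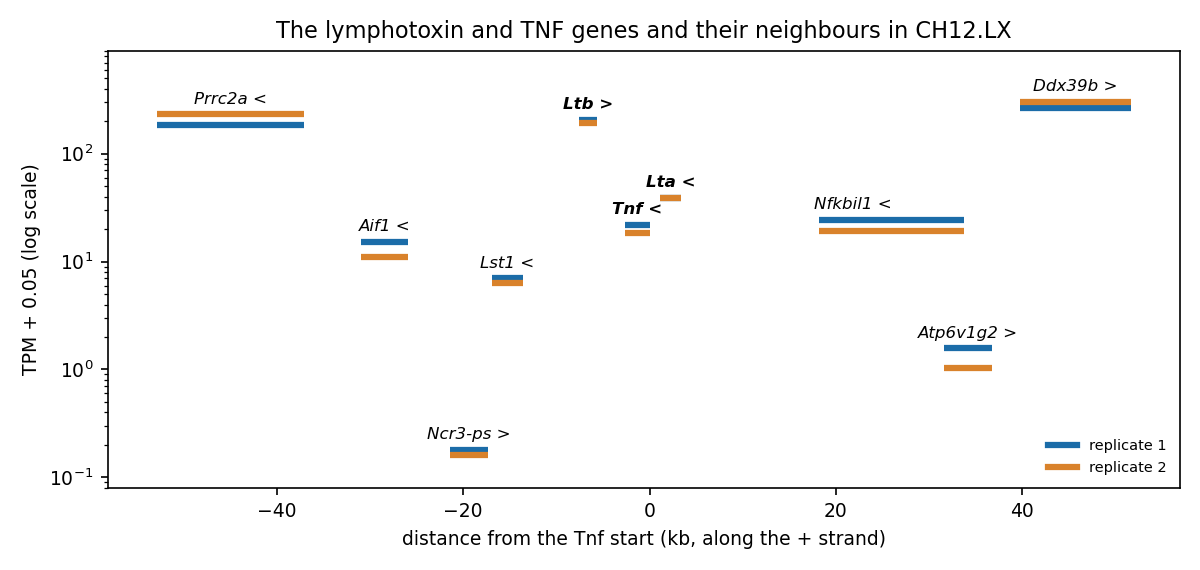
Level of the genes around Tnf, as TPM plus 0.05 on a log axis, against distance from the Tnf start in kb, where each bar spans a gene in 1 replicate and > or < gives its strand. Ltb, which starts at -7.57 kb, stands above Lta and Tnf in both libraries.

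The bases upstream of these 3 starts are printed because neighbours within one locus differed in level. They are from RefSeq on GRCm38.p6, each written on the strand of its gene and ending at the base before the annotated transcript, and capitals mark matches to 3 motifs searched on both strands. The motifs were GGNNTTTCC, shared by many NF-kB sites, found in 4.93 percent of 32851 RefSeq promoters, TGANTCA for AP-1, in 6.75 percent, and TATAAA for the TATA box, in 12.4 percent. The window of Ltb, chr17:35194257-35194438 on the plus strand, is shortened to 182 bases to leave out annotated exon, and those of Tnf, chr17:35202008-35202257, and Lta, chr17:35205352-35205601, are 250 bases on the minus strand.
Ltb: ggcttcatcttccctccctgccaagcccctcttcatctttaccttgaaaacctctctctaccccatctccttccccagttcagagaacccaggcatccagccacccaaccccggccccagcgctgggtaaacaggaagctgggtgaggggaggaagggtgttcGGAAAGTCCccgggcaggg
Tnf: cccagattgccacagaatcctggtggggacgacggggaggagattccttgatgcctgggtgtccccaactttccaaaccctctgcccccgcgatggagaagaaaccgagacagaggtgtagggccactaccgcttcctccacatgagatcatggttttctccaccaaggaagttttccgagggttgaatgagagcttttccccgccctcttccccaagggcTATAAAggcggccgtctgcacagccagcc
Lta: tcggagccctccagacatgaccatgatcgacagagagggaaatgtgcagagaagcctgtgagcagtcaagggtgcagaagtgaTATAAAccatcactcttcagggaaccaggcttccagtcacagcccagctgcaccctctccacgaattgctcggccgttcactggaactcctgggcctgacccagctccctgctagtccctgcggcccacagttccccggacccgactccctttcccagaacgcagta
The Ltb window held an NF-kB match beginning 87 bases before its RefSeq start. The Tnf window held a TATA box 29 bases before the start, and the Lta window held TATAAA at 167 bases before it. A match describes letters and not binding, and no match overlapped another in these windows. For Il10 no promoter sequence was used here.

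Of the undetected members, Il6 is shown for contrast, since its window, chr5:30012864-30013113 on the plus strand, held matches to both NF-kB, 43 bases before the start, and AP-1, 249 bases before it, beside 1 count in each library.
Il6: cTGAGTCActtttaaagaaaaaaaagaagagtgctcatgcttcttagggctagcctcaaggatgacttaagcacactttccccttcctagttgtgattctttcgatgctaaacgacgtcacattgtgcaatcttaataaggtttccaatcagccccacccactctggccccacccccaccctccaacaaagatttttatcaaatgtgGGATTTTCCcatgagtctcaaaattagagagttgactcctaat

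Il16 was read almost wholly from its short form. The gene has 6 annotated transcripts, and ENSMUST00000145610, a protein-coding transcript of 3183 bases in 7 exons that starts inside the gene, held 95.11 and 96.25 percent of its expression in replicates 1 and 2, or 1476.08 and 1616.02 counts. The long form of 19 exons, ENSMUST00000001792, of 5021 bases, held 0.16 and 0 percent, from 3.97 and 0 counts. The rest lay on ENSMUST00000151047, a transcript with a retained intron, at 4.73 and 3.75 percent. The short form shares 1202 of its 3183 exonic bases, or 37.8 percent, with Stard5 on the opposite strand, which stood at 30.11 and 24.48 TPM, so reads from that stretch cannot be told apart without strand. The windows before these 2 starts, on the minus strand of GRCm38.p6 from RefSeq, are chr7:83655496-83655745 for the short form and chr7:83735540-83735789 for the long form.
Il16 short form: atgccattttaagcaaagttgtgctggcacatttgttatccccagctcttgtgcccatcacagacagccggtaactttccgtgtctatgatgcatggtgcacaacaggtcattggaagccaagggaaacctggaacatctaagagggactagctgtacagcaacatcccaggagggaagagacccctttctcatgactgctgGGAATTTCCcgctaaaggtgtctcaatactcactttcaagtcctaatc
Il16 long form: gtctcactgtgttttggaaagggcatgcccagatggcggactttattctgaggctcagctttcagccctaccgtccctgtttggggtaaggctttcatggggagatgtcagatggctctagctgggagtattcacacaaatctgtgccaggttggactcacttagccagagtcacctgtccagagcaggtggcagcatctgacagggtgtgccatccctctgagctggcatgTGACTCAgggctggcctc
The used start had an NF-kB match 48 bases upstream. The start with almost no reads had an AP-1 match 18 bases before its RefSeq start, which differs from that of ENSMUST00000001792. A further RefSeq window of Il16, not printed here, held no match to the 3 motifs. Neither did the windows of Ebi3 and Il12a, which were detected, nor that of Csf2, which was not. The window of Il18, also undetected and not printed here, held a match to TATAAA beginning 175 bases before its RefSeq start. A link of motif and level was not tested.

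Ltb RNA was divided between transcripts in a way that differed between the libraries. The main transcript, ENSMUST00000025262 of 1160 bases, held 82.06 percent in replicate 1 and 93.72 percent in replicate 2. The shorter coding transcript ENSMUST00000173600, of 905 bases, held 16.04 and 4.82 percent, or 470.98 and 146.96 counts. That is 3.2-fold more counts in replicate 1, with a posterior SD of 65.6 and 53.56 counts for the assignment of reads to it. The gene as a whole, at 207.17 and 193.43 TPM, did not show such a gap. Il12a, with few reads, was split by expected counts among a coding transcript and several that retain introns. The coding ENSMUST00000107816 held 46.24 and 33.93 percent of Il12a, while the intron-retaining ENSMUST00000192812 held 26.55 and 35.29 percent and ENSMUST00000191910 held 27.2 and 24.98 percent. Another of this kind, ENSMUST00000195517, held 0 and 5.8 percent. With 36.28 and 21.17 counts on ENSMUST00000107816, the order of these transcripts was not resolved. Tnf kept 100 percent on ENSMUST00000025263, and Il10, Lta and Ebi3 have 1 quantified transcript each.

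**Figure D3:**
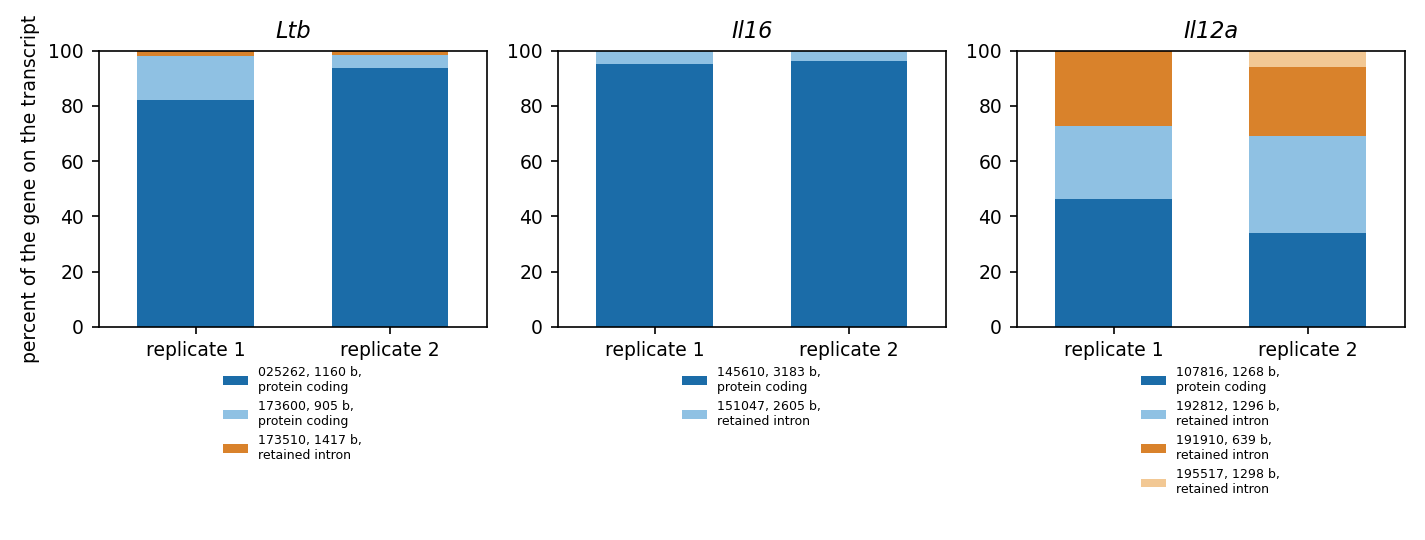
Percent of the expression of Ltb, Il12a and Il16 on each transcript holding more than 1 percent, with replicate 1 left of replicate 2 and keys that give the last digits of the transcript identifier, the length in bases and the type. ENSMUST00000145610 holds at least 95.11 percent of Il16 in both libraries, whereas the 905-base transcript of Ltb holds 16.04 percent in replicate 1 and 4.82 percent in replicate 2.

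Subunits that must pair were present in unequal amounts. Ebi3 exceeded Il12a, its partner in interleukin 35, 17.1-fold in replicate 1 and 27.1-fold in replicate 2 on the TPM scale, a share of 95.5 ± 1.39 percent for Ebi3 in the summed level (SD, n = 2). Ltb exceeded Lta 5.31-fold and 4.96-fold, which is a share of 83.7 ± 0.652 percent. None of the 5 other partner genes was detected. Il27, whose p28 chain joins Ebi3 in interleukin 27, stood at 0.07 and 0.23 TPM. Il12b, the p40 chain that makes interleukin 12 with Il12a, stood at 0.07 and 0.06 TPM from 2 counts in each library. Il23a, which pairs with p40 in interleukin 23, stood at 0.23 and 0.29 TPM. Clcf1, a further listed partner chain, had 0.03 and 0.06 TPM. Among the pairs of the interleukin 12 family, Ebi3 with Il12a was thus the combination with both genes over 1 TPM by the level of the whole gene. The coding Il12a transcript with expected counts above 0, ENSMUST00000107816, stood by itself at 1.8 and 0.95 TPM, under the threshold in replicate 2. The split depends on the estimate. By the posterior mean, a second deposited estimate, this transcript held 23.87 and 23.65 percent of Il12a. Another coding one, ENSMUST00000029345, held 16.24 and 8.05 percent by it.

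The receptors through which these cytokines act were present in part, with 13 of 18 receptor genes detected. For interleukin 10, the ligand-binding Il10ra stood at 3.46 and 3.73 TPM and the shared chain Il10rb at 27.6 and 27.86 TPM. For tumour necrosis factor, Tnfrsf1b, the second receptor, stood at 14.56 and 15.91 TPM, while Tnfrsf1a, the widely expressed first receptor, had 0 counts, which at 3 counts allows up to 0.228 and 0.205 TPM. Ltbr, the receptor of the lymphotoxin heterotrimer, likewise had 0 counts, which allows up to 0.207 and 0.186 TPM. The line thus held RNA of both lymphotoxin chains and no detectable RNA of their joint receptor. Tnfrsf14, the herpesvirus entry mediator, which binds lymphotoxin alpha, stood at 16.72 and 16.1 TPM.

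Receptor chains of the other members were detected in part. Of those for the undetected Csf2, Il6 and Il18, only Csf2rb and Csf2rb2 stood above 5 TPM. Csf2rb, the signalling chain shared by the receptors of Csf2, interleukin 3 and interleukin 5, was the highest receptor gene of the list, at 122.76 and 153.09 TPM. Its mouse relative Csf2rb2 stood at 40.59 and 42.38 TPM and the ligand-binding Csf2ra at 3.44 and 4.19 TPM. Both chains for interleukin 6 were detected, Il6ra at 3.66 and 3.77 TPM and Il6st, the signal transducer gp130, at 4.82 and 4.19 TPM. Il12rb1 reached 7.54 and 8.26 TPM, whereas its signalling partner Il12rb2 missed the threshold at 0.56 and 0.45 TPM. Il27ra stood at 1.98 and 1.78 TPM. Of the interleukin 18 receptor, the accessory chain Il18rap stood at 4.51 and 2.18 TPM, whereas the binding chain Il18r1 had 0 and 1 counts. Cd9, which has been described as a receptor of interleukin 16, stood at 18.91 and 20.21 TPM, and the better known receptor Cd4 at 0.86 and 1.18 TPM.

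**Figure D4:**
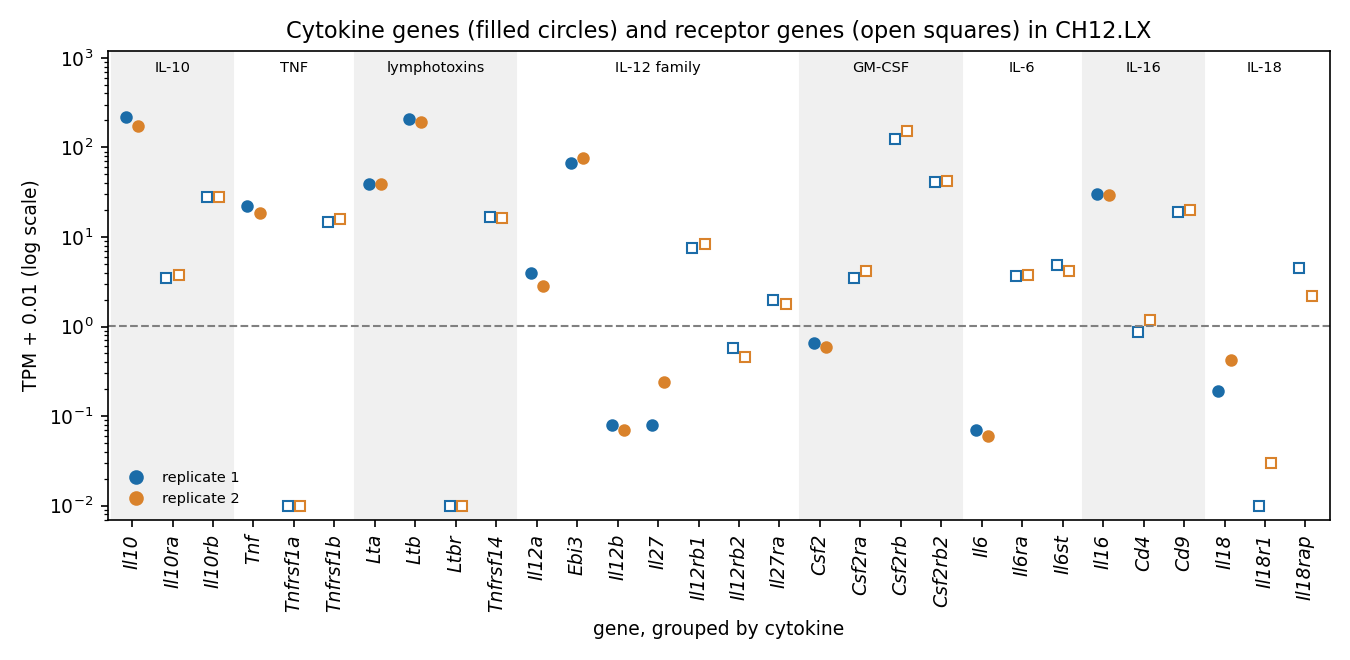
TPM plus 0.01, on a log axis, of cytokine genes with their partners (filled circles) and of their receptor genes (open squares), with 1 point for each replicate and a dashed line at 1 TPM. Il10, Tnf and the lymphotoxins lie above 1 TPM while Tnfrsf1a and Ltbr have 0 counts, and Il6 and Csf2 lie below 1 TPM while Il6ra, Il6st and Csf2rb lie above it.

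Genes that process or bind the cytokines were detected in 9 of 10 cases. Adam17, the protease that sheds tumour necrosis factor from the membrane, stood at 29.94 and 31.2 TPM, and Rhbdf2, its partner iRhom2, at 9.12 and 10.8 TPM. Casp1, which cuts the interleukin 18 precursor, reached 84.92 and 66.47 TPM although Il18 itself had 2 and 5 counts. RNA of this protease was thus detected while that of its substrate was under 1 TPM. The DNA sensor Aim2 stood at 64.99 and 64.24 TPM, Casp4 at 68.23 and 62.26 TPM, the pore-forming Gsdmd at 14.98 and 11.48 TPM and the adaptor Pycard at 4.65 and 3.18 TPM. Il18bp, a decoy that neutralises interleukin 18, stood at 1.75 and 1.94 TPM. The inflammasome sensor Nlrp3 was the gene missed, with 0 counts, which allows up to 0.0646 and 0.0581 TPM.

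All 11 genes of cytokine mRNA turnover were detected. Zfp36l1, of the tristetraprolin family that binds AU-rich elements, was the highest at 97.46 and 119.42 TPM, and its relatives Zfp36l2 and Zfp36 stood at 14.34 and 17.78 TPM and at 9.37 and 10.31 TPM. The roquins Rc3h1 and Rc3h2 stood at 8.97 and 13.05 TPM and at 2.77 and 3.84 TPM, and the nuclease gene Zc3h12a (regnase-1) at 9.9 and 9.84 TPM. Genes that promote decay of cytokine mRNA were thus all over 1 TPM, and so were those that protect it. Among the protecting ones were Elavl1, at 20.93 and 21.88 TPM, and Arid5a, which protects Il6 mRNA, at 12.26 and 9.7 TPM. The silencing factors Tial1, Tia1 and Tnrc6a stood at 60.48 and 62.54, at 25.1 and 22.35 and at 26.37 and 30.42 TPM.

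Of 14 factors known to act on Il10 transcription, 12 were detected. Nfkb1 was the highest at 208.3 and 246.56 TPM, followed by Nfatc1 at 104.14 and 133.0 TPM. The related factors Bhlhe41 and Bhlhe40 stood at 87.67 and 82.73 TPM and at 83.07 and 85.42 TPM, Batf at 79.52 and 65.52 TPM, Irf4 at 56.29 and 60.36 TPM and Stat3 at 50.82 and 49.66 TPM. Bhlhe40 is known to repress Il10 in T cells, so activators and a repressor were both present. Lower levels were found for Nfil3, at 26.71 and 25.46 TPM, Hif1a, at 20.35 and 22.33 TPM, Sp1, at 19.83 and 23.57 TPM, Prdm1, at 9.64 and 9.88 TPM, and Ahr, at 3.42 and 3.61 TPM. Maf, an activator of Il10 in T cells and macrophages, had 1 and 2 counts and was not detected. Around Il10 on chromosome 1, its relatives Il19, at 0.15 and 0.08 TPM, and Il20 and Il24, both at 0 counts, were not detected. The flanking kinase gene Mapkapk2 stood at 53.06 and 46.75 TPM, Eif2d at 49.81 and 42.08 TPM and Dyrk3 at 6.18 and 6.05 TPM. Il10 was thus the detected one of the 4 related cytokine genes at this locus.

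The members were ranked by mean TPM among the 72 measured cytokine genes of the lists used here. Ltb held rank 2, Il10 rank 3, Ebi3 rank 6, Lta rank 8, Il16 rank 9, Tnf rank 10 and Il12a rank 17. The lists leave out chemokines and Tgfb1, so the ranks hold within them only. In all, 19 of the 72 were detected. The highest was Mif, the macrophage migration inhibitory factor, at 1404.28 and 1498.65 TPM. Of 42 other interleukins and haemopoietic cytokines 7 were detected and 18 had 0 counts in both libraries. Besides Mif the detected ones were Il4 at 18.94 and 14.33 TPM, Csf1 at 11.42 and 12.96, Osm at 8.07 and 9.22, Spp1 at 7.91 and 7.68, Il13 at 2.15 and 2.69 and Il3 at 1.04 and 2.61 TPM. For Il3, with 10 and 28 counts, the counting interval in replicate 1, 0.497 to 1.906 TPM, crossed the threshold of 1 TPM. Il2 and Ifng had 0 counts, and Il5 and Il1b stood at 0.04 and 0.07 and at 0.51 and 0.17 TPM. Il3 lies beside Csf2, and of the other listed neighbours there Acsl6 stood at 159.39 and 165.2 TPM and P4ha2 at 3.27 and 2.66 TPM.

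Of 15 other ligands of the tumour necrosis factor superfamily, 5 were detected. Tnfsf9, the ligand of 4-1BB, stood at 105.0 and 105.79 TPM and Cd70, the ligand of CD27, at 93.46 and 100.49 TPM, both below Ltb and above Lta and Tnf. Tnfsf15 stood at 36.42 and 46.57 TPM, Tnfsf8 (the CD30 ligand) at 15.36 and 14.24 TPM and Tnfsf14 (LIGHT), which shares the receptors of lymphotoxin, at 9.76 and 7.76 TPM. Tnfsf13b, which encodes BAFF, had 1.65 and 0.74 TPM, Cd40lg 0.05 and 0.14 TPM and Fasl 0.03 and 0.06 TPM, while Tnfsf11 had 0.

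The libraries were then set against each other, gene by gene, by an exact binomial test on their counts (two-sided, Benjamini-Hochberg adjusted over the 15340 genes with at least 10 counts). The test asks whether a gene differs between these libraries by more than counting error, and it says nothing of conditions. Of the 8 members tested 3 were called at an adjusted p under 0.05, 2 higher and 1 lower in replicate 1, against 30.6 percent of all genes tested, 15.9 percent higher and 14.7 percent lower. Il18 and Il6 had too few counts for the test. Il10 was higher in replicate 1 by a log2 ratio of 0.32, with an adjusted p of 7.86e-24 in the exact test. Tnf was also higher in replicate 1, by a log2 ratio of 0.23 (adjusted p = 0.0323, exact test), and Ebi3 was lower, with a log2 ratio of -0.20 (adjusted p = 0.00171, exact test). Ltb, Lta and Il16 differed by log2 ratios of 0.05, -0.01 and 0.02 and were not called (adjusted p = 0.320, 0.925 and 0.816, exact test), and the sign for Lta turned with library totals in place of TMM sizes. Il12a had the widest ratio of the detected members, 1.36-fold, but with 68 and 55 counts it was not called (adjusted p = 0.234, exact test).

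The members' differences lay within the range seen over the transcriptome. Their median absolute log2 ratio was 0.164, against 0.173 over all genes tested, which include genes with few counts. For the 10098 genes averaging 100 counts or more the median was 0.124, below that of the members, of which Csf2 and Il12a had fewer counts. Of these 10098 genes, 39.0 percent were called and 11.5 percent had an absolute log2 ratio at least that of Il10. When the spread between the replicates was put into the test, as a negative binomial exact test with a biological coefficient of variation of 19.8 percent, none of the 8 members was called. By that test 0 had an unadjusted p under 0.05, against 3 by the binomial test. That spread was estimated from the difference between these same libraries, so a gene of typical difference could hardly be called, and the loss of the calls of Il10, Tnf and Ebi3 says nothing of their stability.

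**Figure D5:**
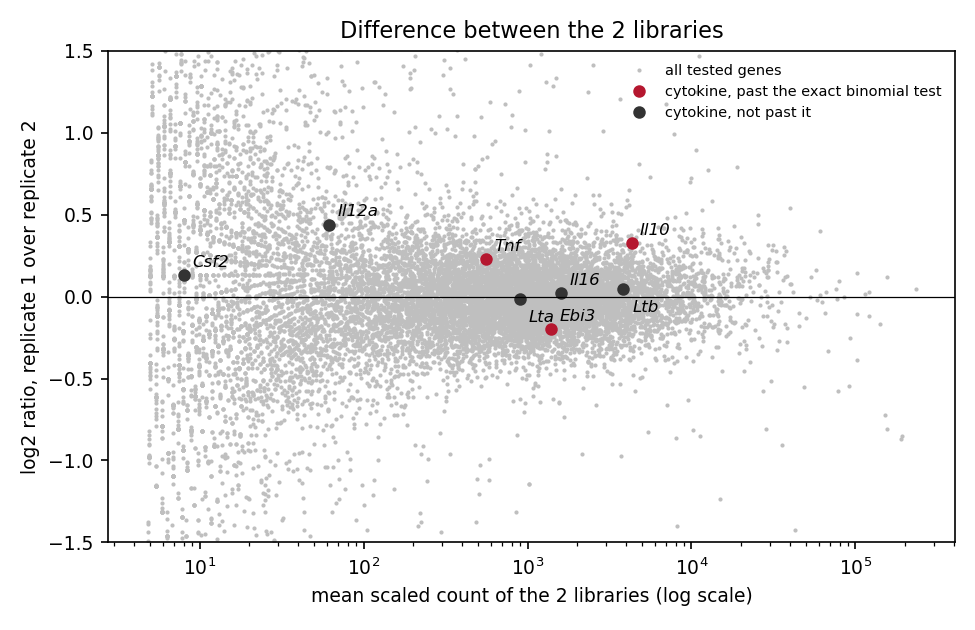
Log2 ratio of replicate 1 over replicate 2 against the mean count on a log axis, for all genes tested in grey and the 8 tested members named. The axis ends at 1.5 log2 units to either side, beyond which 740 genes lie, and Il10 at 0.32, Tnf at 0.23 and Ebi3 at -0.20 lie within the cloud of all genes.

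Genes of the surrounding lists varied between the libraries by the same exact binomial test. Over all genes tested it called 30.6 percent, 15.9 percent higher and 14.7 percent lower in replicate 1. Among genes averaging 100 counts or more it called 39.0 percent, so calls are common in any list of well-counted genes. Of the 15 receptor genes tested 1 was called, Csf2rb, with a log2 ratio of -0.33 and an adjusted p of 2.46e-65. Of 9 processing genes 5 were called, 4 of them higher in replicate 1, with log2 ratios of 0.53 for Pycard, 0.37 for Gsdmd, 0.34 for Casp1 and 0.13 for Casp4. Of 11 turnover genes 6 were called and all 6 were lower in replicate 1 by counts, led by Rc3h1 with a log2 ratio of -0.40, although Tia1 was among them and its TPM was higher in replicate 1. Of 12 Il10 factors 7 were called, with Batf higher in replicate 1, as Il10 was, and 6 lower. Of the other cytokines, Il3 and Mif were lower in replicate 1, with log2 ratios of -1.31 and -0.11, Tnfsf15 was lower with -0.37, and Tnfsf14 was higher with 0.32. The ratio of Il3 rests on only 10 and 28 counts. The B cell markers were called in 6 of 8 cases, all lower in replicate 1. None of the T cell and myeloid markers tested was called, but these rested on far fewer counts. Cd3d, at 24 and 38 counts, was not called with a log2 ratio of -0.52. Cd79b, at 9990 and 11492 counts, was called with -0.07. The missing calls therefore do not show that the T cell and myeloid markers were stable. The part of all these markers in the cytokine ratios was not tested.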

How the data were processed

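Polyadenylated RNA of CH12.LX was measured in 2 libraries. Per the deposited notes, the tables were made from transcriptome alignments on mm10 with the GENCODE M4 annotation (aligner and quantifier: not given in the sources used here). Expected counts, as deposited, estimate the reads per gene or transcript. The deposited TPM and FPKM values are corrected for length and scaled by the authors to each library. Per the file headers, the isoform column splits each gene among its transcripts in percent. A posterior mean and SD of counts is a second deposited estimate.

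Names, types and coordinates came from GENCODE M21 on GRCm38, the assembly of mm10, and 42462 of 43346 Ensembl entries matched. A further 26248 entries with bare numbers as identifiers held 0.0426 and 0.0539 percent of the counts but 18255 and 22456 TPM, and stayed out of tests. Expected counts were rounded for tests. Each gene with at least 10 summed counts was tested by an exact binomial test (scipy 1.17.1, Python 3.11.15) with TMM effective library sizes of edgeR 4.0.16 in R 4.3.3, and log2 ratios used a pseudocount of 0.5. Alternatives used DESeq2 1.42.0 size factors, library totals, other thresholds and the negative binomial exact test of edgeR. The test was tested on simulated data. Intervals are exact Poisson at 95 percent, a count of 0 was bounded with 3 counts per library, and both cover counting error only. The labels give separate biosamples but not how they were cultured. The p-values of the exact binomial test set the difference between these libraries against counting error only and hold no spread between replicates.

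The members and the 14 other lists were chosen with earlier results of these data known. The rule names every member and subunit partner, detected genes of the other lists, those that complete a pair, up to 4 undetected cytokines per list and transcripts of at least 5 percent. A few list members are counted but not reported here by name. No measured entry carried the listed names Flt3l, Il36a, Il36b, Il36g and Faim3, so nothing was analysed here under these names. RefSeq promoters were matched for 9 members and were 250 bases long before any trimming at an annotated exon. The motifs were also chosen after the data were seen, and the NF-kB motif was shortened from a longer form that marked the same windows.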

Additional observations from a re-analysis of the deposited data

How the results depend on the processing

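The detected members numbered 7 under FPKM, posterior mean TPM and rescaled TPM, 8 at 0.5 TPM and 6 at 5 TPM, and 7 to 7 when either replicate was left out. The other interleukins gave 7 to 7 and the other TNF superfamily ligands 5 to 6 without 1 replicate, and these ligands gave 8 in place of 5 at 0.5 TPM. Genes called between the libraries numbered 4692 with TMM sizes, 4683 with DESeq2 size factors, 4680 with library totals, 4483 without a filter and 4603 on posterior mean counts, but 389 with the negative binomial exact test, which by construction holds a spread estimated from these same libraries. That test called 0 members in place of 3, with adjusted p = 1.0 in the exact test for Il10, Tnf and Ebi3. The share of calls higher in replicate 1 was 52.1 percent, 59.5 percent with library totals and 73.5 percent with the negative binomial test. The log2 ratio of Lta, not called, was -0.01 with TMM sizes and 0.01 with library totals, and no other log2 ratio of a member changed sign. By expected counts in place of TPM, Ltb made up 80.8 percent of Ltb and Lta, since counts are not corrected for length. No paired analysis was possible because there is 1 group. With 2 libraries an SD is itself imprecise, and at 8 or fewer counts the levels of Csf2, Il18 and Il6 are known only within wide intervals.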

Other observations

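Ltbr and Tnfrsf1a, the receptor genes without a count, lie near each other on chromosome 6, Ltbr from 125306571 to 125313885 and Tnfrsf1a from 125349362 to 125362484 in GRCm38. This stretch was looked at after the values were seen. Between the detected genes Tapbpl, at 16.21 and 14.3 TPM in replicates 1 and 2, and Cd9, at 18.91 and 20.21 TPM, 228.4 kb apart, lay 8 annotated entries, 6 of them protein coding. Of the 8 entries 6 had no count in either library, among them Tuba3a and Scnn1a beside the 2 receptor genes, and the highest count in the stretch was 7. Plekhg6, next to Tnfrsf1a, had 0 and 1 counts.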
